A study of Mus musculus with 3 samples.

Results

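The external plexiform layer of the mouse main olfactory bulb was examined as 651672 array spots of 2239466 spots in named regions. Its members were the spots that the deposited annotation assigns to that layer, 252949, 202713 and 196010 of them in sections 1, 2 and 3. The sources used here do not say how the authors drew the layer or whether transcripts helped to draw it. The study captured poly(A) RNA on high-density arrays of barcoded spots from 3 coronal sections, which form a single group of C57BL/6J mice at 12 weeks of age, with no treatment named. No label ties a section to an animal. With section as a term in the tests, the p-values below measure only how differences within a section varied over these 3 sections. That spread may be technical. Each spot is a small patch of tissue that can hold parts of several cells, so results are given for the layer and not for a cell type.

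The layer lies between the glomerular layer, where sensory axons end, and the mitral layer, where the mitral output neurons have their somata. It is mostly neuropil: the lateral dendrites of mitral and tufted cells run through it and form reciprocal synapses with the spines of granule cells, whose cell bodies lie deeper. Mitral and tufted dendrites release glutamate there and granule cell spines return GABA, while astrocytes take up both transmitters and the potassium that synaptic activity releases. Tufted cells and a sparse population of local interneurons have their cell bodies in the layer itself.

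**Figure D1:**
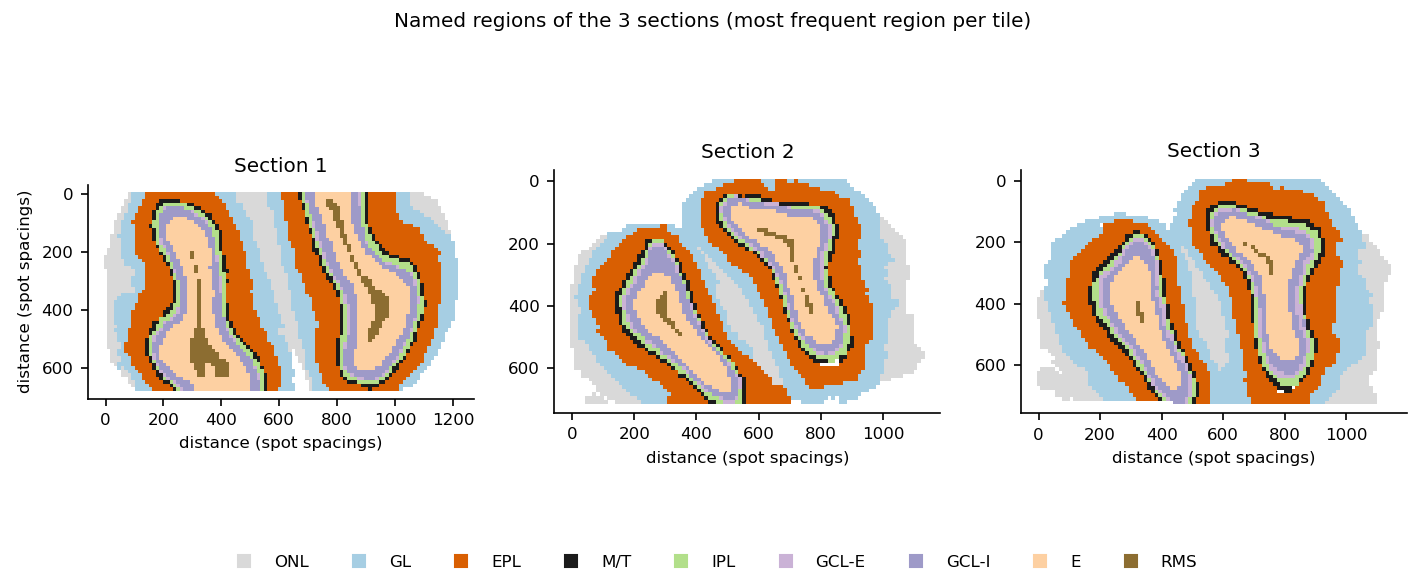
Map of the 3 sections, with distances in spot spacings on both axes. Each square is a tile coloured by its most frequent named region. The external plexiform layer (EPL, orange) forms a band between the glomerular layer (GL) and the thin mitral layer (M/T), outside the deep regions. In section 1 this band runs to the edge of the map. ONL stands for olfactory nerve layer, IPL for internal plexiform layer, GCL-E and GCL-I for external and internal granule cell layer, E for ependymal cell zone and RMS for rostral migratory system.

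The layer was wide and sparsely sampled. A spot in it lay a median of 35.3, 29.1 and 29.0 spot spacings from the nearest glomerular layer spot in sections 1, 2 and 3, and 33.6, 31.1 and 30.9 spacings from the nearest mitral layer spot. At least 1 transcript count was found on 11.02%, 23.3% and 19.6% of its spots, and those spots held 2.61, 3.87 and 3.25 counts on average. The layer summed to 72694, 182699 and 125299 counts on 10400, 13721 and 12463 genes. Counts were therefore added up per section and region, and levels are given as CPM, the counts of such a sum scaled to a common total. All 9 named regions of all 3 sections entered each comparison between regions. Section 1 was the shallowest in this layer, and some genes stood far lower in all of its regions than in the other sections. Slc1a2, for example, measured 578 CPM in the layer in section 1 against 4455 and 3871 CPM in sections 2 and 3, and 428 CPM in the glomerular layer against 2403 and 2155 CPM. Section was a term in the tests, and results are also given without single sections where that changed them.

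Fewer counts came from this layer than from its inner neighbour. Per 100 spots the layer gave 28.7, 90.1 and 63.9 counts in sections 1, 2 and 3, the mitral layer 44.8, 130.5 and 97.6 counts, and the glomerular layer 30.9, 101 and 75.5 counts. The layer was the lowest of these 3 in each section, although the sections differed from each other by more than the layers did. On spots with counts, the log2 count per spot relative to the mean of the other 8 regions was -0.28, -0.18 and -0.14, or -0.20 ± 0.07 (SD, n = 3). These values are a description, and no test was run on them.

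Across the layer's depth, counts were densest at both borders. With the layer cut into 5 equal steps of relative depth, the outermost step gave 1.08 ± 0.012 times the layer's mean count per spot (SD, n = 3) and the innermost 1.18 ± 0.163 times. The 3 steps between them gave 0.917 ± 0.051, 0.906 ± 0.072 and 0.904 ± 0.059 times. In each section both border steps lay above all 3 middle steps. Section 1 had the highest inner border value, 1.37, against 1.09 and 1.08 in sections 2 and 3.

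The layer's label was read beside 4 genes. They were chosen with earlier results of these data known, so their values and p-values are a description and no independent check. Doc2g, a mitral and tufted cell gene with C2 domains (chromosome 19, 4003313 to 4007005, mm10), measured 1389, 640.4 and 790.1 CPM in the layer in sections 1, 2 and 3, against 528, 256 and 234 CPM for the mean of the other regions. The ranges did not overlap, and the layer was higher by a log2 fold change of 1.98 (SE 0.17, edgeR quasi-likelihood test, adjusted p = 4.52e-27). Glul, glutamine synthetase, which astrocytes use to recycle glutamate (chromosome 1, 153899944 to 153909723), measured 1953, 3153 and 3001 CPM against 1154, 1611 and 1639.5 CPM, again without overlap (log2 fold change 1.01, SE 0.11, adjusted p = 9.88e-17). Slc1a2, the main astrocyte glutamate transporter (chromosome 2, 102658659 to 102790784), was higher than the other regions in each section, but its ranges overlapped, with section 1 low in all regions (483, 2354 and 2072 CPM in the others, log2 fold change 1.15, SE 0.12, adjusted p = 8.96e-21). Sparcl1, a matrix glycoprotein secreted by astrocytes (chromosome 5, 104079111 to 104113733), measured 1775, 2917 and 3009 CPM against 1335, 1861 and 1588 CPM, with overlapping ranges (log2 fold change 0.92, SE 0.12, adjusted p = 2.71e-13). All 4 had their highest mean of the 9 regions in this layer. None of them marked it alone: the Doc2g mean was 911 ± 477 CPM in the mitral layer (adjusted p = 0.718 against the layer) and the Sparcl1 mean was 2555 ± 288 CPM in the glomerular layer (adjusted p = 0.964).

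**Figure D2:**
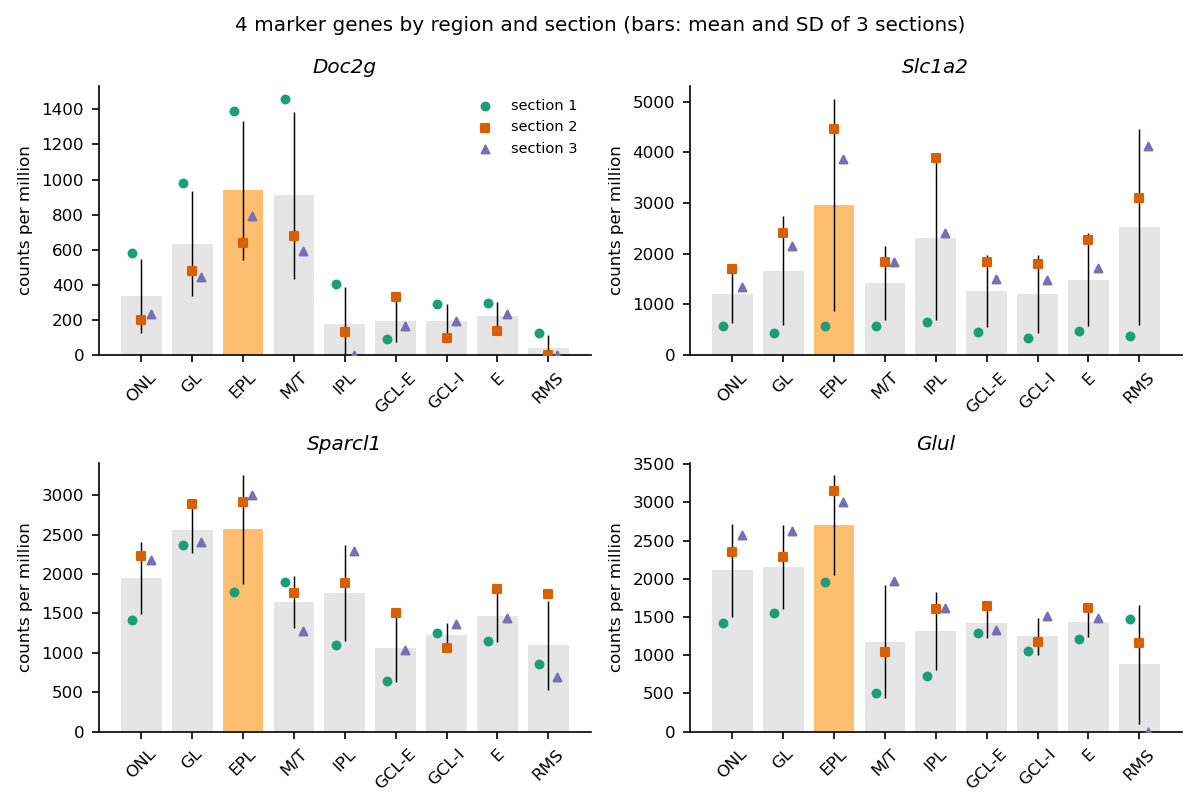
CPM of 4 marker genes in the 9 named regions, from outside to inside. Bars and error bars give the mean and SD of 3 sections, and points give the sections. Doc2g was about as high in the mitral layer (911 CPM on average) as in the external plexiform layer (940.0 CPM), and Slc1a2 was low in every region of section 1.

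Against the mean of the other 8 regions, the layer was higher for 206 of 1996 tested genes (10.3%) and lower for 30 (1.5%). The median log2 fold change over all tested genes was 0.09. With library sizes as the only scaling, the median was -0.10 and the split became 105 higher and 90 lower, and with the counts of the other regions pooled it was 162 higher and 73 lower. Of the 206 genes, 187 were protein coding and 148 were higher in each of the 3 sections. The layer had the highest mean of the 9 regions for 80 of them. All 30 lower genes were protein coding, and 29 were lower in each section. Without section 2 the numbers dropped to 96 and 3, and without section 3 to 105 and 5.

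Genes of mitral and tufted cells were among the highest, without standing above the mitral layer. Of 12 such genes 8 passed the filter on low counts, and 6 of these were higher in the layer than in the other regions and 0 lower (median log2 fold change 1.16, against 0.09 over all genes). Slc17a7, the vesicular transporter that loads glutamate into their vesicles, measured 1802, 443 and 503 CPM against 640.2, 241 and 348 CPM, higher in each section with overlapping ranges (log2 fold change 1.46, SE 0.16, adjusted p = 9.46e-17). Cdhr1, a cadherin-related protein, averaged 582 ± 295 CPM against 326 ± 121 CPM (adjusted p = 1.07e-08). Reln, the secreted glycoprotein reelin, averaged 402 ± 117 CPM against 225 ± 44.6 CPM (adjusted p = 1.94e-06). Rab3b, a vesicle GTPase, was higher in 2 of 3 sections, with adjusted p = 1.10e-04, which became 0.0505 without section 3. Eomes, a transcription factor of these neurons, passed with adjusted p = 0.0170 but not without section 1 (0.116). Against the internal granule cell layer 7 of the 8 were higher, where 8.42% of all genes were, and the median difference was 1.61. Against the mitral layer 0 of 8 differed, and the median was -0.39 (0.04 over all genes). Against the glomerular layer 1 of 8 was higher, Slc17a7, where 0.752% of all genes were, and the median was 0.42. That adjusted p of Slc17a7, 0.0373, became 0.202, 0.452 and 0.696 without sections 1, 2 and 3. The summed level of the list was 6300, 2666 and 3089 CPM in the layer and 6153, 4049 and 5310 CPM in the mitral layer. In the glomerular layer it was 4261, 2443 and 2405 CPM.

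Astrocyte genes for the uptake of glutamate, GABA, potassium and water were higher as a group. All 11 members of this list were tested, and all 11 were higher than the mean of the other regions, with a median log2 fold change of 1.01. Their summed level was 6080, 16514 and 15722 CPM in sections 1, 2 and 3, against 3806, 6144 and 7434 CPM in the mitral layer and 3289, 6648 and 6880 CPM among internal granule cells. The layer was higher than both in each section, although the ranges overlapped through section 1. These 2 regions had the lowest mean sums of this list. Its mean was 12772 ± 5809 CPM in the layer, 8672 ± 2734 CPM in the nerve layer and 8742 ± 4302 CPM in the internal plexiform layer. Against each of the latter 2 regions 2 of 11 were higher, where 1.7% and 2.4% of all genes were. The number was 6 against the rostral migratory system (2.86%), 9 against the external granule cell layer (4.66%) and 11 against the ependymal cell zone (8.47%). Kcnj10, the inwardly rectifying potassium channel of astrocytes, measured 165, 870 and 798 CPM in the layer. The mean of the other regions was 79.8, 340 and 314 CPM (log2 fold change 1.49, SE 0.18, adjusted p = 1.58e-14). Slc6a11, an astrocyte GABA transporter, was even across sections at 1128, 1248 and 1301 CPM against 809, 633 and 846 CPM, without overlap (log2 fold change 0.95, SE 0.13, adjusted p = 4.44e-11). Gja1, the gap junction protein connexin 43, averaged 309 ± 127 CPM against 145 ± 48.7 CPM (adjusted p = 1.35e-07). Slc1a3, the other astrocyte glutamate transporter, averaged 1522 ± 949 CPM against 1027 ± 590.4 CPM (adjusted p = 4.09e-11). Slc4a4, a sodium bicarbonate cotransporter, Atp1b2, a pump subunit, and Aqp4, the water channel of astrocyte endfeet, had log2 fold changes of 0.95, 0.70 and 1.04. Of the 11, only Slc4a4 was not higher in each section. Without section 2, 8 of 10 tested members were still higher, while Atp1b2 (adjusted p = 0.482) and Aqp4 (0.0560) were not.

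The same 11 genes were then compared with each neighbour. Against the mitral layer all 11 were higher, with a median of 1.34, where 62 genes in all were higher (3.11%). Against the glomerular layer 2 were higher, Slc1a2 (log2 fold change 0.83, SE 0.15, adjusted p = 2.36e-05) and Kcnj10 (0.72, SE 0.20, adjusted p = 0.0252), where 15 genes in all were higher (0.752%). These counts dropped without either of the deeper sections. Without section 2 the number above the mitral layer was 2 of 10, where 4 of 1768 genes in all were higher. Without section 3 it was 6 of 11, where 16 of 1907 genes were. Above the glomerular layer it was 0 without either of them, where 0 and 3 genes in all were higher. In bulk sums like these, more astrocytes in a region and more RNA per astrocyte cannot be told apart.

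**Figure D3:**
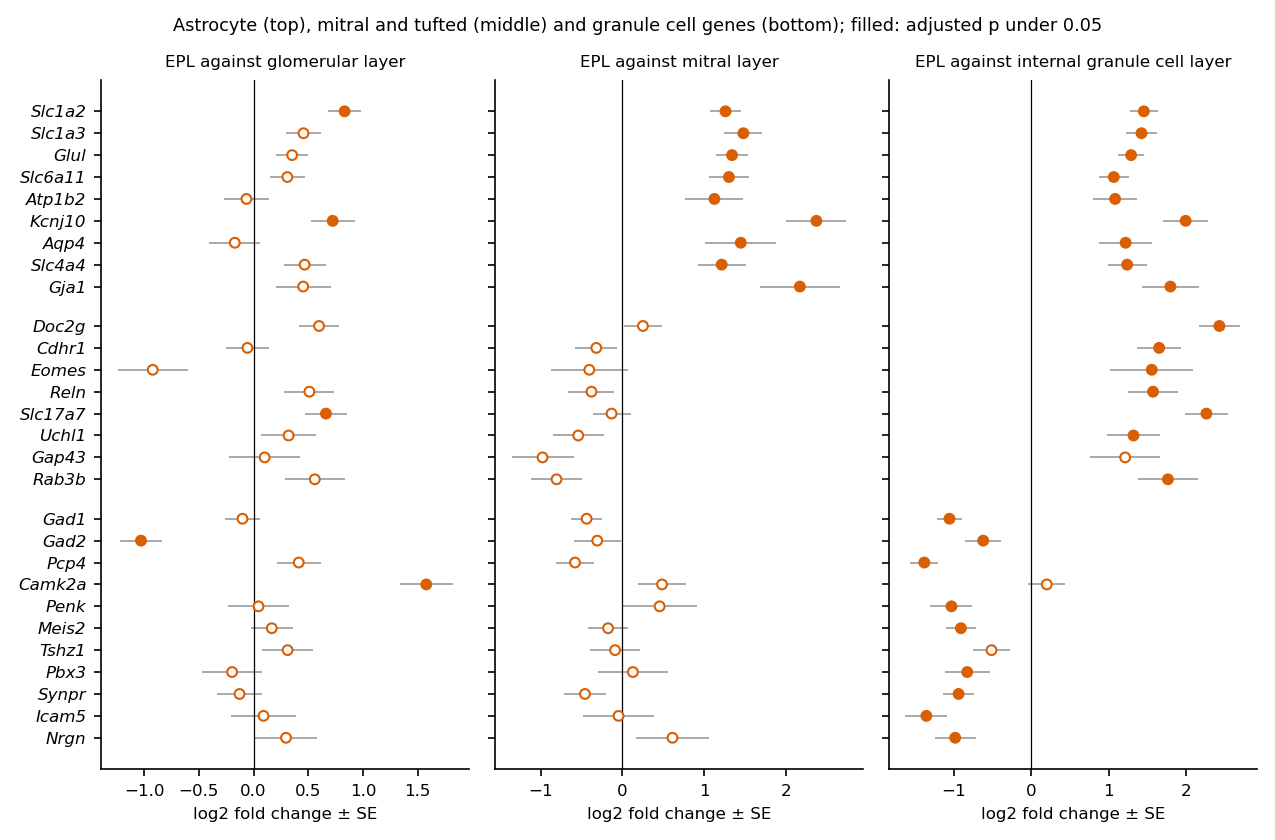
Log2 fold change ± SE of the external plexiform layer against 3 other layers for 9 astrocyte transport genes, 8 mitral and tufted cell genes and 11 granule cell genes. Positive values are higher in the external plexiform layer, and filled points passed an adjusted p of 0.05. Against the mitral layer the 9 plotted astrocyte genes passed and 0 of the 8 mitral and tufted genes did. Against the internal granule cell layer 9 granule cell genes were lower.

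Other astrocyte genes were higher in part. Of 16 genes 14 were tested, and 8 were higher than the other regions (median 0.53, with 10.3% of all genes higher). Besides Sparcl1 they included Plpp3, a lipid phosphatase, at 443 ± 264 CPM against 255 ± 73.4 CPM and higher in 2 of 3 sections (adjusted p = 5.29e-06), Aldoc, the astrocyte aldolase, at 1065 ± 128 CPM against 755 ± 186 CPM (adjusted p = 3.74e-05), and Cpe, a carboxypeptidase that processes prohormones and is also made by neurons, at 3379 ± 904 CPM against 2674 ± 513 CPM (adjusted p = 2.53e-05). Cpe had an adjusted p of 0.0561 once section 2 was left out, and 3 of 15 tested members were higher. Among 5 tested genes of the extracellular matrix, Ptprz1, a receptor phosphatase with chondroitin sulfate chains, and Ncan, the proteoglycan neurocan, were higher along with Sparcl1. Ptprz1 measured 68.8, 1171 and 1101 CPM against 135, 491 and 479 CPM, so that section 1 ran the other way (log2 fold change 1.36, SE 0.17, adjusted p = 3.57e-14). Ncan averaged 235 ± 68.1 CPM against 128 ± 23.5 CPM (adjusted p = 1.98e-04, and 0.0819 without section 2).

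Transcripts of the dendritic and axonal cytoskeleton were higher in part. Of 20 tested microtubule, neurofilament and motor genes, 7 were higher than the mean of the other regions and 0 lower, where 10.3% of all genes were higher and 1.5% lower (median 0.21). Against the mitral layer 1 was higher (3.11% of all genes) and against the internal plexiform layer 1 (2.4%). Against the glomerular layer 2 were higher (0.752%) and 1 lower (0.852%). The summed list averaged 12468 ± 1871 CPM in the layer and 12870 ± 2938 CPM in the mitral layer. It averaged 11658 ± 790 CPM in the internal plexiform layer and 10378 ± 710 CPM in the glomerular layer. Map1b, a microtubule-associated protein, measured 757, 3487 and 2825 CPM in the layer. The mean of the other regions was 398, 1512 and 1572 CPM, so the layer was higher in each section (log2 fold change 1.38, SE 0.12, adjusted p = 1.08e-25). Map1a, which binds dendritic microtubules, measured 674, 1883 and 1604 CPM against 573, 942 and 1067 CPM (log2 fold change 0.93, SE 0.13, adjusted p = 2.27e-11). It was also higher than the glomerular layer (0.66, SE 0.16, adjusted p = 0.00483) and the mitral layer (0.70, SE 0.21, adjusted p = 0.0265). Against the glomerular layer the adjusted p of Map1a became 0.994 without section 2 and 0.0848 without section 3. Nefl, the light neurofilament chain, averaged 295 ± 43.0 CPM against 151 ± 11.2 CPM (adjusted p = 6.48e-06). Map2, the classic dendritic microtubule protein, measured 605, 2611 and 2378 CPM against 663, 2122 and 1661 CPM. It was higher in 2 of 3 sections (log2 fold change 0.50, SE 0.12, adjusted p = 7.74e-04), and without sections 2 and 3 the adjusted p became 0.276 and 0.246.

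Of 16 mRNAs known to travel into dendrites, 12 were tested and 5 were higher than the mean of the other regions, where 10.3% of all genes were, with a median of 0.37. Against the glomerular layer 3 were higher (0.752% of all genes), and against the mitral and internal plexiform layers 0 (3.11% and 2.4%). The summed list averaged 6688 ± 2227 CPM in the layer. It averaged 6884 ± 2253 CPM in the internal plexiform layer, 7303.5 ± 1547 CPM in the ependymal cell zone and less elsewhere. By section the layer's sum was 4127, 8172 and 7765 CPM. The mean of the other regions was 4459, 7158 and 6611 CPM, so section 1 ran the other way. Shank1, a scaffold of excitatory synapses, measured 413, 870 and 846 CPM against 307, 512 and 620.4 CPM (log2 fold change 0.95, SE 0.16, adjusted p = 2.39e-07). Ppp1r9b, the spine protein spinophilin, averaged 391 ± 45.1 CPM against 281 ± 31.4 CPM (adjusted p = 2.38e-04). Camk2a, a calcium/calmodulin-dependent kinase whose mRNA is carried into dendrites, measured 193, 679 and 567 CPM against 234, 491 and 665 CPM, and was above the other regions in section 2 alone. Its log2 fold change of 0.55 (SE 0.17, adjusted p = 0.0144) is against the mean of the regions' log levels, whereas the CPM of the other regions are averaged without logs. Without sections 2 and 3 the adjusted p of Camk2a became 0.572 and 0.0898. Against the glomerular layer Camk2a was higher, at 479 ± 255 CPM against 169 ± 58.5 CPM (log2 fold change 1.58, SE 0.24, adjusted p = 6.82e-08, and 0.160 without section 2). Ddn, the postsynaptic protein dendrin, measured 207 ± 40.0 CPM against 88.6 ± 8.68 CPM in the glomerular layer (log2 fold change 1.24, SE 0.34, adjusted p = 0.0227). Without sections 2 and 3 its adjusted p became 0.891 and 0.116.

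Genes of granule cells, whose dendrites but not cell bodies occupy the layer, were mostly lower than in the internal granule cell layer. Of 12 such genes 11 were tested and 9 were lower, where 116 genes in all were lower (5.81%), and their median was -0.94. Without sections 1, 2 and 3 in turn this was 7, 3 and 5 of 11. Gad1, a GABA synthesis enzyme, averaged 1358 ± 542 CPM in the layer, below the internal granule cell layer with a log2 fold change of -1.06 (adjusted p = 2.21e-09). Pcp4, a calmodulin-binding peptide, differed there by -1.38 (adjusted p = 1.72e-12). Camk2a, also on this list, measured 479 CPM in the layer and 487 CPM there (adjusted p = 0.679). Against the mean of the other regions Gad1 and Pcp4 were lower (-0.42 and -0.60). Camk2a passed in the other direction, on the mixed sections given above and not without section 2 or 3. The 2 lower calls were lost without section 2 (adjusted p = 0.233 and 0.332) and without section 3 (0.540 and 0.120). With library sizes as the only scaling 7 of 11 were lower and 0 higher.

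Genes of synaptic transmission showed no common direction. Of 18 tested synaptic vesicle genes 2 were higher and 1 lower, where 10.3% of all genes were higher and 1.5% lower. Sv2b, a vesicle glycoprotein, and Sncb, beta-synuclein, were higher (log2 fold changes 1.53 and 0.76), and Sncb had an adjusted p of 0.0644 without section 2. Of 10 tested AMPA, NMDA and kainate receptor genes 0 differed, and their median was 0.0087. Of 5 tested GABA-A receptor subunits 2 were higher and 1 lower. Gabra5 was lower at 55.0, 76.6 and 71.8 CPM against 191, 184 and 241 CPM, without overlap (-0.98, SE 0.34, adjusted p = 0.0371). That call was lost without any one section (adjusted p = 0.198, 0.226 and 0.189). Gabrb1 passed with adjusted p = 0.00383 and did not pass the filter without section 2 or 3. Homer2, a scaffold of metabotropic glutamate receptors, had a log2 fold change of 1.46 (SE 0.35, adjusted p = 5.72e-04, and 0.107 without section 2). That value is raised by 0 CPM of Homer2 in the rostral migratory system (6.57 against that region).

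Ion channels, pumps and energy genes differed in few members. Of 10 tested potassium channel genes, Kcna2, a delayed rectifier subunit of axons, was higher at 151, 416 and 343 CPM against 95.4, 277 and 206 CPM (log2 fold change 1.05, SE 0.22, adjusted p = 5.47e-05), and so was Kcnab2, its auxiliary subunit (1.33, adjusted p = 0.00595, and 0.115 without section 1). Of 9 sodium and calcium channel genes 2 were higher, and of 11 pump genes 2 were higher and 1 lower. The lower one was Atp2b1, a plasma membrane calcium pump (-0.48, adjusted p = 0.0154, and 0.451 and 0.272 without sections 2 and 3). Of 25 glycolysis and citric acid cycle genes 2 were higher, and of 31 respiratory chain genes 2, with medians of 0.18 and 0.11. Over all tested genes 10.3% were higher. Of 11 adhesion genes 4 were higher, among them Cadm1, Cntn1 and Cdh2, at adjusted p = 0.00317, 0.0158 and 0.00660. Without section 3 these adjusted p were 0.232, 0.251 and 0.0506, and Cdh2 had 0.158 without section 2.

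Local interneurons of the layer were barely sampled. Pvalb, the calcium-binding protein parvalbumin that marks many of them, had 3, 0 and 0 counts in the layer in sections 1, 2 and 3. Crh, corticotropin-releasing hormone, had 3, 5 and 3 counts, Sst, somatostatin, had 1, 1 and 3, and Vip, vasoactive intestinal peptide, had 9, 12 and 12. None of these 4 genes passed the filter on low counts. Of the 3 tested genes on that list, Slc32a1, the vesicular GABA transporter, was lower than the other regions (-0.56, SE 0.20, adjusted p = 0.0425). It measured 660.3, 159 and 160 CPM against 556, 364 and 468 CPM, so that section 1 ran the other way. Its adjusted p was 0.100, 0.718 and 0.667 without sections 1, 2 and 3.

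Among genes outside these lists, the largest differences from the mean of the other regions were the following. Paqr8, a membrane progestin receptor, measured 96.3, 400 and 559 CPM against 52.0, 182 and 180.0 CPM (log2 fold change 2.05, SE 0.29, adjusted p = 8.97e-11). Cck, the neuropeptide cholecystokinin made by tufted cells (chromosome 9, 121489824 to 121495694), measured 880.4, 367 and 471 CPM against 391, 189 and 168 CPM (1.71, SE 0.19, adjusted p = 1.33e-16). It did not differ from the glomerular layer, with means of 573 ± 272 CPM in the layer and 585 ± 341 CPM there (0.03, adjusted p = 0.973). Sept3, a neuronal septin, Arap2, a regulator of small GTPases, Trnp1, a nuclear protein, and Hlf, a transcription factor, had log2 fold changes of 1.77, 1.57, 1.55 and 1.47. All of these kept an adjusted p under 0.05 against the mean of the other regions without each section in which they were tested. Paqr8, Sept3 and Trnp1 measured 0 CPM in the small rostral migratory system. Their log2 fold changes of 6.97, 6.55 and 7.37 against it raise the values given here. Their ratios of mean CPM were 2.55, 1.96 and 1.66, and they passed upward against 6, 5 and 3 of the 8 regions. With that region left out their adjusted p was 1.35e-09, 3.94e-05 and 0.0068. Gm13339, an unprocessed pseudogene, was also among the largest, but reads of such copies can be split between near-identical sequences, so its value is uncertain. In the other direction stood Hnrnph3, an RNA-binding protein, Cds1, a phospholipid synthesis enzyme, Parva, the adhesion protein alpha-parvin, Gm13889, Celf3, an RNA-binding protein, Sp9, a transcription factor of interneurons, and Pacsin2, an endocytic adaptor. Their log2 fold changes ran from -1.15 (Hnrnph3 and Cds1) to -0.96 (Pacsin2), with adjusted p from 0.0122 (Gm13889) to 0.0478 (Sp9). Without section 1 all of the 6 that were still tested were lost, with adjusted p of 0.117 for Cds1, 0.926 for Parva, 0.247 for Gm13889, 0.0792 for Celf3, 0.117 for Sp9 and 0.923 for Pacsin2. Without section 3 the adjusted p was 0.0893 for Parva and Gm13889, 0.481 for Celf3, 0.515 for Sp9 and 0.125 for Pacsin2, and without section 2 it was 0.114 for Parva, 0.138 for Gm13889 and 0.339 for Celf3. Hnrnph3 was not tested once a section was left out.

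**Figure D4:**
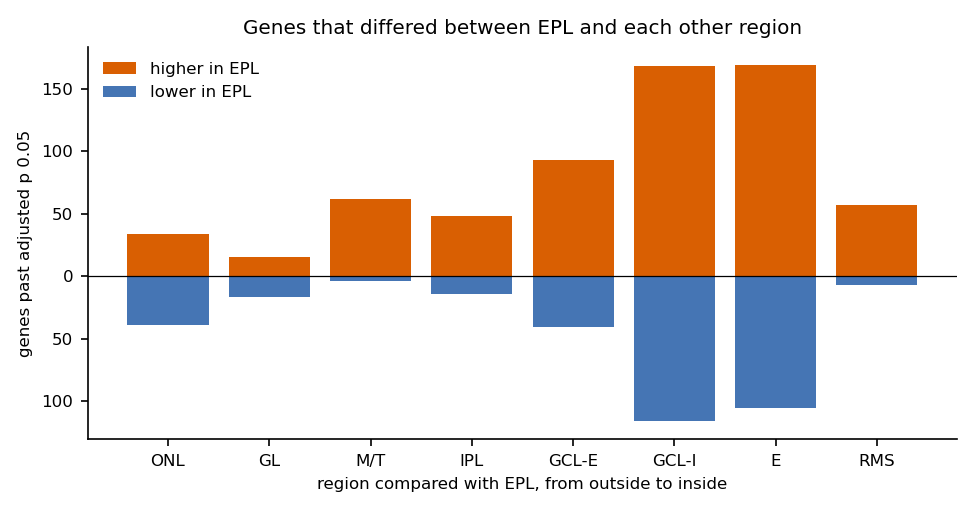
Number of genes higher (above the line) or lower (below the line) in the external plexiform layer against each other region, at an adjusted p under 0.05. The fewest genes, 32, differed from the glomerular layer (GL) and the most, 284, from the internal granule cell layer (GCL-I).

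Compared region by region, the layer differed in the fewest genes from the glomerular layer (1.6%), with 15 higher (0.752%) and 17 lower (0.852%). It differed from the internal plexiform layer in 48 genes higher (2.4%) and 14 lower (0.701%). It differed from the mitral layer in 62 genes higher (3.11%) and 4 lower (0.2%), and from the olfactory nerve layer in 34 higher (1.7%) and 39 lower (1.95%). The counts were highest against both granule cell layers and the ependymal cell zone. In either direction the share was 3.66% for the nerve layer, 3.31% for the mitral layer, 3.11% for the internal plexiform layer, 3.21% for the rostral migratory system, 6.71% and 14.2% for the external and internal granule cell layers and 13.7% for the ependymal cell zone. There were 168 higher (8.42%) and 116 lower (5.81%) against the internal granule cell layer, 169 (8.47%) and 105 (5.26%) against the ependymal cell zone, and 93 (4.66%) and 41 (2.05%) against the external granule cell layer. Against the rostral migratory system 57 were higher (2.86%) and 7 lower (0.351%). The counts dropped without either of the deeper sections. Without sections 2 and 3 the number in either direction was 21 and 37 for the nerve layer, 5 and 17 for the internal plexiform layer and 19 and 43 for the external granule cell layer. It was 104 and 133 for the internal granule cell layer, 85 and 113 for the ependymal cell zone and 24 and 29 for the rostral migratory system. The regions differ in depth, so these counts do not rank their likeness. The split also moved with the scaling. With library sizes alone it was 9 and 21 against the glomerular layer, 42 and 37 against the mitral layer, 32 and 37 against the internal plexiform layer and 56 and 82 against the external granule cell layer. It was 129 and 222 against the internal granule cell layer, 111 and 215 against the ependymal cell zone and 16 and 13 against the rostral migratory system. With RLE scaling, 50 genes were higher and 16 lower than in the mitral layer.

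No gene was above all 8 other regions at once (0 of 1996, 0.0%), and none was below all 8. Of the 7 genes above 7 regions, 5 were protein coding: Slc1a2, Slc6a11, Slc17a7, Map1a and Ptprz1. The other 2 were the unprocessed pseudogenes Gm13340 and Gm13341, whose values are uncertain as for Gm13339. For Slc17a7 the 7 include the glomerular layer (adjusted p = 0.0373). That call was lost with DESeq2 (0.35) and without any one section (0.202, 0.452 and 0.696 without sections 1, 2 and 3). Without section 1, 9 genes were above all 8, among them Slc1a2, Map1a and Ptprz1, and without the rostral migratory system 5 were above the 7 that remained, among them Slc1a2 and Kcnj10. Slc1a2, Kcnj10, Map1a, Luzp2, Pla2g7 and Gm13341, 6 of 1996 genes, were higher than both neighbours, the glomerular and the mitral layer. Without section 2 no gene was higher than the glomerular layer (0 of 1768), so none stayed above both. Without section 3 the adjusted p against the glomerular layer was 0.0877 for Slc1a2, 0.436 for Kcnj10, 0.0848 for Map1a and 0.0407 for Luzp2.

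Genes of periglomerular interneurons, sensory axons and ensheathing glia, which belong to the glomerular and nerve layers, were lower than in the glomerular layer. All 4 tested periglomerular genes, all 3 tested sensory axon genes and 3 of 5 tested ensheathing glia genes passed (0.852% of all genes were lower). Th, tyrosine hydroxylase of dopaminergic periglomerular cells, averaged 112 ± 83.3 CPM in the layer and 312 ± 225 CPM in the glomerular layer (log2 fold change -1.49, SE 0.34, adjusted p = 0.00226, and 0.418 without section 2). Calb2, the calcium-binding protein calretinin, averaged 443 ± 147 CPM and 996 ± 469 CPM (-1.09, SE 0.19, adjusted p = 4.13e-06). Omp, the olfactory marker protein of sensory axons, had 3, 14 and 5 counts in the layer (-1.51, SE 0.42, adjusted p = 0.0273). Without sections 2 and 3 it had adjusted p of 0.660 and 0.855. Apod, an apolipoprotein of ensheathing glia, measured 330.1, 356 and 319 CPM in the layer and averaged 817 ± 125 CPM in the glomerular layer (-1.31, SE 0.20, adjusted p = 6.44e-08). The summed sensory axon list stood at 303, 476 and 415 CPM in the layer and at 632, 907 and 1104 CPM in the glomerular layer, without overlap. Rtp1 had 1 count in the layer and Gng8 and Cnga2 had 0, all 3 from that list. Kctd12, an auxiliary subunit of GABA-B receptors, differed by -1.61 (SE 0.26, adjusted p = 3.05e-07, and 0.0576 without section 3), Npy, neuropeptide Y, by -1.87 (adjusted p = 0.00240), and Gad2, the other GABA synthesis enzyme, by -1.03 (adjusted p = 3.18e-05). Without sections 1 and 2 the adjusted p of Npy became 0.0600 and 0.418, and Gad2 had 0.491 without section 2.

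The 15 genes higher than in the glomerular layer included Jph4, Hpcal4 and Luzp2, besides Camk2a and Ddn. Jph4, a junctophilin that ties the plasma membrane to the endoplasmic reticulum, had a log2 fold change of 1.63 (SE 0.45, adjusted p = 0.0227). Hpcal4, a neuronal calcium sensor, measured 303, 378 and 327 CPM and averaged 143 ± 53.2 CPM in the glomerular layer (1.45, SE 0.27, adjusted p = 3.18e-05). Luzp2, a leucine zipper protein, had a log2 fold change of 1.01 (SE 0.19, adjusted p = 3.81e-05). Without section 2 the adjusted p was 0.660 for Jph4, 0.336 for Hpcal4 and 0.522 for Luzp2. Without section 2 the test called 0 genes higher and 3 lower, and 95 of 1768 genes had an unadjusted p under 0.05.

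The 62 genes higher than in the mitral layer included genes of glia and blood. Beside the astrocyte genes above, Itgb8, an integrin subunit of astrocytes, averaged 220 ± 179 CPM against 30.3 ± 31.3 CPM (log2 fold change 2.98, SE 0.65, adjusted p = 3.66e-04), and Prex1, an exchange factor for Rac, averaged 222 ± 97.7 CPM against 29.3 ± 28.4 CPM (2.86, SE 0.66, adjusted p = 9.09e-04). Without section 2 these adjusted p were 0.433 and 0.0811, and Prex1 had 0.246 without section 3. Hbb-bs, a haemoglobin chain, averaged 703 ± 225 CPM against 118 ± 104 CPM (2.52, SE 0.37, adjusted p = 5.39e-09). The blood list summed to 1293, 1434 and 2259 CPM in the layer, to 127, 566 and 750 CPM in the mitral layer, without overlap, and to 1692, 1258 and 1913 CPM in the glomerular layer. The haemoglobin genes Hba-a1, Hba-a2 and Hbb-bs, were also higher than the mean of all other regions, but near-identical copies make their single values uncertain. The part of blood in the other differences from the mitral layer was not tested.

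The layer had 4 genes lower than in the mitral layer. Snap25, a core protein of vesicle fusion, measured 3866, 2157 and 1899.5 CPM in the layer and averaged 4110 ± 174 CPM in the mitral layer (log2 fold change -0.58, SE 0.17, adjusted p = 0.0243). Scg2, the granin secretogranin II, differed by -0.89 (SE 0.27, adjusted p = 0.0307). Neither Snap25 nor Scg2 passed without section 2, with adjusted p of 0.795 and 0.599, or without section 3, with 0.604 and 0.246. The number of genes lower than in the mitral layer was 0 without either of these sections (130 and 159 genes at an unadjusted p under 0.05 in either direction).

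Markers of other cells were also read in the layer. Of 5 tested myelinating oligodendrocyte genes, Mbp, myelin basic protein, was lower than the mean of the other regions at 1719.5, 602 and 782 CPM against 2500.4, 1220 and 1755 CPM (-0.48, SE 0.13, adjusted p = 0.00442), and so was Mobp (-0.55, adjusted p = 0.0351). The call for Mbp was lost without section 2 (0.513) and section 3 (0.120), and that for Mobp without any one section (0.416, 0.233 and 0.302). Of 10 microglia genes only Cst3, which astrocytes and neurons also express, was tested and was higher. The defining microglial genes Tmem119, Cx3cr1 and C1qa had 0, 12 and 10 counts in the whole layer. Of 2 tested endothelial genes 0 differed, of 5 neuroblast genes 0, and of 3 immediate early genes 0. Over all tested genes 11.8% differed and 1.5% were lower, so 0 calls in lists this short show no absence.

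Within the layer, an outer zone nearer to the glomeruli was compared with an inner zone nearer to the mitral cells. Of 1291 tested genes 2 differed (0.155%), 1 in each direction (0.0775% each), and 75 had an unadjusted p under 0.05. Cck measured 1292, 455 and 649 CPM in the outer zone and 533, 272 and 281 CPM in the inner zone, higher outside in each section (log2 fold change 1.04, SE 0.23, adjusted p = 0.00472). The ranges overlapped, with section 1 high in both zones. Map2 (chromosome 1, 66175273 to 66442583) ran the other way, with 391, 2053 and 1978 CPM in the outer zone and 787, 3208 and 2806 CPM in the inner zone (-0.63, SE 0.13, adjusted p = 0.00387). Again each section had the same direction and the ranges overlapped. By the 5 steps of depth, Cck averaged 1025, 567, 509, 401 and 375 CPM from the glomerular to the mitral side, and Map2 averaged 1498, 1508, 1510, 2055 and 2710 CPM. In the adjoining mitral layer the Map2 mean was 1666 ± 1124 CPM, below that of the innermost step. In the adjoining glomerular layer the Cck mean was 585 ± 341 CPM, below that of the outermost step. Neither gene passed without any one section. The adjusted p of Cck was 0.880, 0.999 and 0.256 without sections 1, 2 and 3, and that of Map2 0.745, 0.999 and 0.256.

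**Figure D5:**
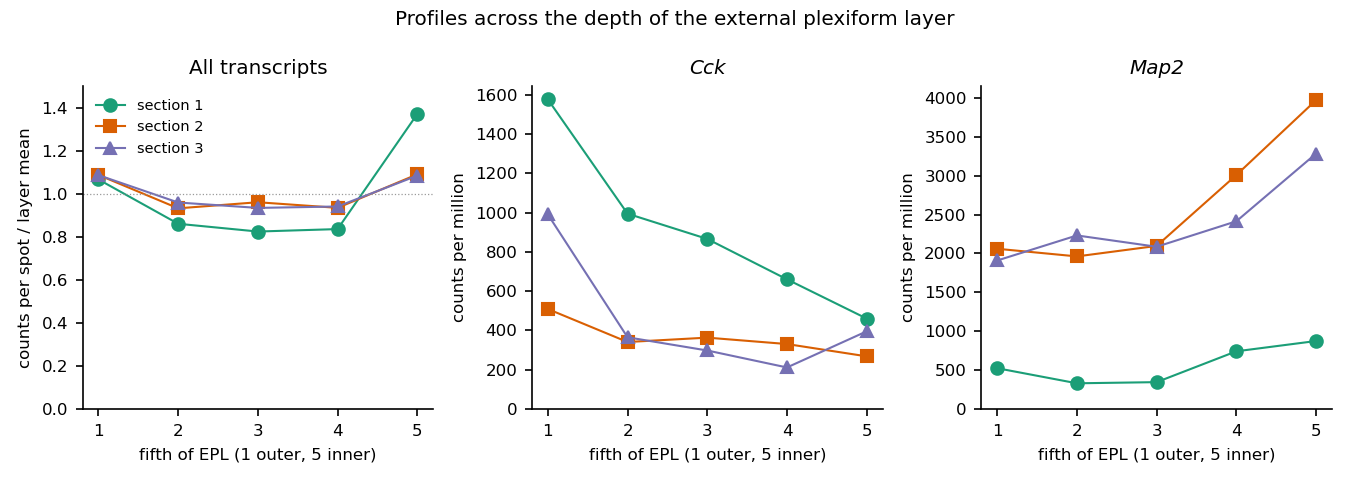
Profiles across 5 steps of relative depth from the glomerular side (1) to the mitral side (5), with 1 line per section. Left, counts per spot over the layer's mean; middle and right, Cck and Map2 in CPM. Counts per spot were highest at both borders, Cck averaged 1025 CPM in step 1 and 375 CPM in step 5, and Map2 was highest in step 5 at 2710 CPM.

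Whole gene lists varied with depth as well, as a description with no test. The summed mitral and tufted cell list averaged 4522 ± 1853 CPM in the outermost step, 2625 ± 820 CPM in the middle step and 5525 ± 3188 CPM in the innermost, and both border steps lay above the middle step in each section. The astrocyte transport list had the opposite shape, with 11142 ± 3989 CPM outermost, 14677 ± 6800 CPM in the middle and 10873 ± 6040 CPM innermost. The middle step was above both border steps in each section. The sensory axon list averaged 355 ± 116 CPM in the outermost step, on 33 counts, against 881 ± 237 CPM in the adjoining glomerular layer.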

How the data were processed

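For each section the authors deposited raw counts by spot and gene, and a table of every spot under tissue with its array position, pixel position and region. Per the submitters' processing notes, mm10 was the build. The aligner and counter are not given in the sources used here, nor is whether the counts are of unique molecules. Gene positions and biotypes came from the GENCODE annotation of that build, which held 99.8% of 19621 symbols.

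Pixel positions tied counts to regions (all entries matched), and counts were added up into 27 sums, 9 regions in each of 3 sections. Counts without a gene name (112, 497 and 405 in sections 1, 2 and 3) were left out. Sections held 344218, 644694 and 501870 counts in named regions, which limits precision most in the small regions. The test was edgeR 4.0.16 (robust quasi-likelihood, R 4.3.3) with TMM scaling, region and section in the model, a minimum count of 10 in its filter (1996 genes kept), Benjamini-Hochberg adjustment and a threshold of 0.05. The layer was set against the unweighted mean of the 8 other regions, against each region, and an outer against an inner zone split at a relative depth of 0.5 between the nearest glomerular and mitral spots (1291 genes kept). CPM are per region sum, and means ± SD are over 3 sections. The script was tested on simulated counts. Section is shared tissue and array: the deviations of the layer's sums from region means correlated at 0.51 on average with those of the same section (lowest 0.149, 24 pairs) and at -0.22 with other sections.

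The layer, the 30 gene lists and the markers were chosen with earlier results of these data known. Genes named by rule were, against the other regions, the 12 highest and 8 lowest fold changes past the threshold with the same direction in each section and at least 30 counts. Against each neighbour, and between the zones, they were the 4 largest in each direction. Of each list, members that passed and those with the most counts were named, and genes above most regions or both neighbours were named after their values were seen. Some genes that these rules take are not reported here; counts over lists include them. Alternatives were RLE scaling, library sizes alone, no filter, no section block, each section left out, DESeq2 1.42.0, no spots closer than 5 array positions to another region (boundary spots), no rostral migratory system, joining by spot name, pooled other regions, and narrower outer and inner zones. After the data were seen, fits of 5 regions alone, with and without boundary spots, were added. Tables and figures used matplotlib 3.10.9, scipy 1.17.1, pandas 2.3.3 and numpy 2.4.6 in Python 3.11.15.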

Additional observations from a re-analysis of the deposited data

How the results depend on the processing

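Depth limits these results: the layer averaged 3.25 counts on a spot with counts, the mitral, internal plexiform and external granule cell layers and the rostral migratory system held the fewest counts, and p-values cover 3 sections. The number of genes that differed from the mean of the other regions was 236, against 843 with no filter on low counts, 133 with DESeq2 and between 99 (without section 2) and 243 with a section left out. The 236 were 206 higher and 30 lower. With no filter 842 were higher and 1 lower of 19621 genes, and the median log2 fold change was 0.57. Without boundary spots 281 were higher and 0 lower of 1202 genes. Without section 2, 96 of the 236 genes were still called. Against the glomerular layer 32 became 11 with no filter, 10 with DESeq2, 14 without boundary spots and 3 to 51 with a section left out. Against the mitral layer 66 became 35 without boundary spots and 4 to 89 with a section left out. The number above every other region was 0, against 1 with no filter, 5 without the rostral migratory system, 0 to 9 with a section left out, and 14 and 11 in fits of 5 regions without and with boundary spots left out. For outer against inner zone, 2 became 0 with no filter, with DESeq2 and with any section left out (237, 6 and 32 to 76 genes at an unadjusted p under 0.05), and 4 with narrower zones. The layer's log2 count per spot, -0.20, was -0.36 with empty spots included. The cause of these shifts was not tested.

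The fit without the replicate block, in which sections are not paired, called 4 genes against the other regions, 0 against the glomerular layer, 0 against the mitral layer and 0 between zones (178, 31, 88 and 6 at an unadjusted p under 0.05). With boundary spots left out, which leaves few spots in the thin regions and moved the median of all genes to 0.63, some genes changed sign: Gad1 (0.025), Pcp4 (0.64), Mbp (0.26) and Mobp (0.060) against the other regions, and Snap25 (0.23) against the mitral layer. Of the results on single genes, 12 lost their call and 82 kept it with library sizes alone, 28 and 63 with DESeq2, and 26 and 68 with no filter. None of them changed sign under these 3 settings. Without section 1, 16 lost their call and 75 kept it, without section 2 the numbers were 47 and 38, and without section 3 they were 37 and 51. Without the replicate block 92 lost their call and 2 kept it. Genes not tested under a setting are left out of its numbers.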
